A study of Mus musculus with 15 samples.

Results

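The subunits of the respiratory chain and of ATP synthase were examined in mouse liver through 98 protein-coding genes of the 25731 genes in the deposited tables. They were chosen by symbol in the GENCODE M21 annotation. The rule uses no measured value, but it was set with earlier results of these data known. The symbols are Nduf followed by a, b, c, s or v and a number for complex I, Sdha to Sdhd for complex II, Uqcr for complex III, the Cox4i, Cox5, Cox6, Cox7 and Cox8 families for complex IV, Atp5 for complex V, and mt-Nd, mt-Co, mt-Cytb and mt-Atp. Of the 98 genes, 13 lie on mitochondrial DNA and 85 in the nucleus. A filter on low counts left 91 for testing, all 13 mitochondrially encoded genes and 78 nuclear ones. Ndufa4, which is now placed in complex IV, was counted under complex I by its symbol, and Cyc1 and Ndufab1 fall outside the symbol rule.

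Liver RNA came from mice of the inbred laboratory strain C57BL/6. The diets were chow, a high-fat diet and a ketogenic diet, in which fat replaces nearly all carbohydrate, and each had 5 libraries. The fat-rich diets were given for 3 days at 12 weeks of age, and the protocol gives 3 days for chow as well, without an age for those mice. The labels give no diet composition, sex or batch, so a batch that followed the diets cannot be told apart from the diet. The summed level of 5 hepatocyte markers (Alb, Apoa1, Ttr, Tat and Cps1) was read in CPM (read counts scaled to the library size). It was 76020 to 84840 CPM on the ketogenic diet, 61060 to 73330 CPM with high-fat feeding and 66920 to 81470 CPM on chow. The ketogenic and high-fat ranges did not overlap. Of the 5 markers, 0 rose and 1 fell for ketogenic against chow, and 1 rose and 2 fell for high-fat against chow. For ketogenic against high-fat, 1 rose and 1 fell. The part of these markers in the results below was not tested.

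Libraries held 30121672 to 50914494 estimated reads assigned to genes. Major urinary protein (Mup) genes took 3.84 to 6.03% of these reads on the ketogenic diet, 7.71 to 14.4% with high-fat feeding and 8.40 to 14.5% on chow. The effective lengths that kallisto deposited, summed over transcripts, were 204448130 to 206351463 bases on the ketogenic diet, 207169463 to 220245509 with high-fat feeding and 209790549 to 218568248 on chow. Summed erythroid markers (Hba-a1, Hba-a2, Hbb-bs, Hbb-bt and Alas2) were 338 to 554 CPM on the ketogenic diet, 399 to 1166 CPM with high-fat feeding and 735 to 1076 CPM on chow, and all 5 fell against chow on the ketogenic diet. B and plasma cell markers summed to 2.69 to 3.74, 4.09 to 8.19 and 5.26 to 14.9 CPM in the same order, and all 5 likewise fell. Summed markers of Kupffer, endothelial, stellate and bile duct cells overlapped between every pair of diets. For ketogenic against high-fat, however, 2 of 6 Kupffer markers (Vsig4 and Cd5l) and 1 of 5 stellate markers (Dcn) rose and 1 of 5 bile duct markers (Sox9) fell, with list medians of 0.37, 0.18 and -0.53. Adipocyte and neutrophil markers reached at most 3.18 and 1.58 CPM. The part of these values in the results below was tested only as the effective lengths and the Mup share, by the alternatives named beside the results, and otherwise was not tested.

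The respiratory chain sits in the inner mitochondrial membrane. Complexes I and II pass electrons from NADH and succinate to ubiquinone, complex III hands them to cytochrome c, and complex IV passes them to oxygen. Complexes I, III and IV pump protons, and ATP synthase (complex V) uses the proton gradient to make ATP. Complex II is built from nuclear genes alone, whereas each of the others also needs subunits from mitochondrial DNA. Mitochondrial DNA is copied into long precursor RNAs that are cut, mostly at tRNAs, into mRNAs. In the liver this machinery takes up the electrons released by fatty acid oxidation.

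Neighbouring mitochondrial genes share bases, and reads that fall there belong to both genes. The sequences are shown because they bear on which of the 13 values are separate measurements. They come from the GENCODE M21 transcripts on build GRCm38.p6, plus strand, with 15 bases on either side, and capitals mark the shared bases.
mt-Atp8/mt-Atp6: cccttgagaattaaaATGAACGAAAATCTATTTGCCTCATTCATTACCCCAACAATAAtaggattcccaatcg
mt-Nd4l/mt-Nd4: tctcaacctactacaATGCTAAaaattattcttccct
mt-Nd5/mt-Nd6: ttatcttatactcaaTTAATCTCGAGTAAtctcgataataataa
The reading frames of mt-Atp8 and mt-Atp6 share 43 bases at chrM:7927-7969, and those of mt-Nd4l and mt-Nd4 share 7 bases at chrM:10167-10173. Each of these pairs is known to be carried on a common mRNA. The ends of mt-Nd5 and mt-Nd6 share 14 bases at chrM:13552-13565 but lie on opposite strands, and mt-Nd6 is the only member of the 13 on the minus strand. The labels do not say whether the libraries kept strand, so reads of mt-Nd6 and of transcripts opposite to it cannot be told apart.

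The mitochondrially encoded genes took far more of the reads than the nuclear ones, and the 2 shares differed in opposite directions between the ketogenic diet and the others. The 13 mitochondrial genes took 9.60, 9.71, 9.40, 10.1 and 10.2% of the reads assigned to genes on the ketogenic diet, 11.6, 12.2, 10.6, 12.4 and 12.3% with high-fat feeding, and 11.8, 12.3, 12.0, 12.2 and 11.7% on chow. All 5 ketogenic libraries were below all others by reads, but as a percent of TPM the same genes took 18.35 to 19.42, 17.22 to 22.76 and 17.23 to 21.88%, and the diets overlapped. The 85 nuclear genes took 1.063, 1.008, 1.003, 0.9986 and 1.069% on the ketogenic diet, 0.947, 0.890, 0.894, 0.877 and 0.893% with high-fat feeding, and 0.972, 0.925, 0.909, 0.913 and 0.901% on chow. Here the ketogenic libraries were above all others, and likewise as a percent of TPM (1.937 to 2.093% against 1.338 to 1.633% and 1.444 to 1.713%). With Mup genes left out of the totals the nuclear shares overlapped, at 1.047 to 1.125, 0.9528 to 1.094 and 0.9966 to 1.088%. Nuclear reads per 100 mitochondrial reads were 9.86 to 11.1 on the ketogenic diet, 7.08 to 8.44 with high-fat feeding and 7.46 to 8.23 on chow. These shares carry no test, and a share of reads moves with every other gene in the library. In bulk tissue, fewer cells of a type and less RNA per cell cannot be told apart.

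**Figure D1:**
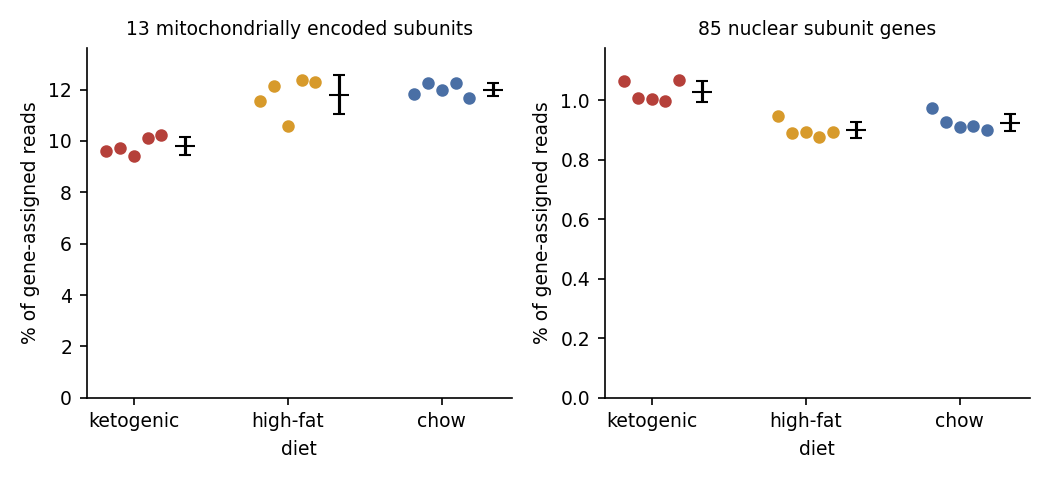
Percent of gene-assigned reads taken by the 13 mitochondrially encoded genes (left) and the 85 nuclear subunit genes (right) on the y axes, by diet on the x axis. Points are libraries, with the mean and SD (n = 5) to the right of each group. The ketogenic libraries are the lowest in the left panel, at 9.40 to 10.2%, and the highest in the right panel, at 0.999 to 1.07%.

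By complex, the mitochondrial share divided unevenly. Cytochrome b (mt-Cytb), the only mitochondrial subunit of complex III, took 0.808 ± 0.101% of reads on the ketogenic diet against 1.47 ± 0.0943% with high-fat feeding and 1.36 ± 0.0868% on chow (SD, n = 5 each). The mitochondrial subunits of complex IV took 4.45 ± 0.248, 5.28 ± 0.240 and 5.51 ± 0.181%, and those of complex V took 1.098 ± 0.0600, 1.44 ± 0.122 and 1.49 ± 0.0434%, in the same order of diets. The 7 mitochondrial subunits of complex I together took 3.46 ± 0.0489, 3.61 ± 0.358 and 3.64 ± 0.123%, with ranges that overlapped between the ketogenic diet (3.37 to 3.49%) and each of the others. Nuclear complex V subunits had the largest share among the nuclear genes, 0.409 ± 0.0134% on the ketogenic diet, 0.350 ± 0.00925% with high-fat feeding and 0.349 ± 0.0150% on chow.

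Levels per transcript length were compared as TPM (reads divided by effective length and scaled to a common total) in the chow libraries. The highest mitochondrial mean was that of mt-Atp6, which encodes a proton channel subunit of ATP synthase, at 35670 TPM (range 30660 to 39340). The next was mt-Co2, a catalytic subunit of complex IV, at 26870 TPM (22820 to 29980), whose range overlapped that of mt-Co1 at 26040 TPM (20540 to 28690). The lowest was mt-Nd6, at 113 TPM (76.7 to 191). Among nuclear genes Atp5b, the catalytic beta subunit of ATP synthase, led at 835 TPM (690 to 946), overlapping Ndufa4 at 737 TPM (629 to 828). Within complex II the catalytic subunit Sdha, at 269 TPM (210 to 336), stood above the ranges of Sdhb at 138 TPM (111 to 153), Sdhc at 150 TPM (117 to 178) and Sdhd at 142 TPM (119 to 152), which overlapped each other. Levels across genes are approximate, because the short mitochondrial genes have effective lengths far under their annotated ones, such as 78 against 204 bases for mt-Atp8, and some longer genes have effective lengths above them.

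On the ketogenic diet against chow, 8 of the 13 mitochondrially encoded genes fell and none rose, while 7 of 78 nuclear genes rose and 5 fell. These calls are adjusted p values under 0.05 in edgeR's quasi-likelihood test over 13967 genes. Over all genes tested, 30.8% were called, 16.2% higher and 14.6% lower. The median log2 change was -0.38 over the mitochondrial genes and -0.02 over the nuclear genes, against -0.01 over all genes tested. All 8 mitochondrial genes that fell had ketogenic libraries entirely below chow in CPM, as did 10.1% of all genes. As TPM, mt-Cytb (9027 to 11660 against 12370 to 16830) and mt-Atp6 (28210 to 30470 against 30660 to 39340) stayed entirely below chow. The ranges of the others overlapped chow. At an unadjusted p under 0.05 were 9 of the mitochondrial and 17 of the nuclear genes, beside 5673 of all 13967 genes.

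Cytochrome b, mt-Cytb (chrM:14145-15288), had 6760, 6698, 7653, 9545 and 8604 CPM on the ketogenic diet, 14830, 16180, 14080, 14680 and 14460 CPM with high-fat feeding, and 13010, 13890, 14720, 13870 and 13580 CPM on chow. Every ketogenic library was below every other one, and the high-fat and chow libraries overlapped. The gene fell by 43.2% against chow (log2 fold change -0.82 ± 0.09 SE, 95% interval -1.01 to -0.62, adjusted p = 3.1e-06), the largest fall among the 13.

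The proton-pumping complex I subunit mt-Nd4 (chrM:10167-11544) had 8063, 8137, 8674, 10440 and 9529 CPM on the ketogenic diet, 13170, 14880, 11950, 14510 and 13950 CPM with high-fat feeding, and 12850, 14050, 14140, 13340 and 13100 CPM on chow. Again the ketogenic libraries were lowest in CPM and did not overlap the others. As TPM they overlapped chow, at 9959 to 11480 against 11000 to 14740. Its fall against chow was -0.59 ± 0.09 on the log2 scale (adjusted p = 3.86e-05). mt-Nd4l, on the same mRNA, fell by 0.39 ± 0.08 (adjusted p = 0.00112).

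For ATP synthase, mt-Atp6 (chrM:7927-8607) had 8932, 9076, 8962, 10770 and 10250 CPM on the ketogenic diet, 13510, 14420, 11820, 13200 and 12980 CPM with high-fat feeding, and 13740, 13770, 13740, 13770 and 13730 CPM on chow. The chow libraries lay within 40 CPM of each other, and the ketogenic ones were all lower. The gene fell by 0.52 ± 0.08 on the log2 scale (adjusted p = 4.18e-05), and mt-Atp8, which shares its mRNA, fell by 0.40 ± 0.08 (adjusted p = 0.00116).

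All 3 mitochondrial subunits of complex IV, which form its catalytic core, fell as well. mt-Co1 had 24870, 25410, 21540, 26600 and 27560 CPM on the ketogenic diet against 35650, 32560, 30660, 32300 and 29320 CPM on chow (log2 fold change -0.35 ± 0.09, adjusted p = 0.00482). mt-Co2 had 8358, 8622, 8000, 9173 and 9330 CPM against 11860, 11060, 11100, 11550 and 11100 CPM (-0.38 ± 0.07, adjusted p = 0.000451). mt-Co3 had 8423, 8709, 8843, 9930 and 10620 CPM against 12960, 12270, 12660, 12160 and 13700 CPM (-0.45 ± 0.10, adjusted p = 0.0013). In none of the 3 did a ketogenic library reach the lowest chow library in CPM. As TPM all 3 overlapped chow. The ranges were 21690 to 26010 against 20540 to 28690 for mt-Co1 and 23570 to 25480 against 22820 to 29980 for mt-Co2. For mt-Co3 they were 17920 to 20810 against 20000 to 22430.

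The complex I subunits encoded nearest the start of the precursor RNA had ketogenic values at or above chow. mt-Nd1 (chrM:2751-3707) had 6459, 7270, 6869, 6574 and 7420 CPM on the ketogenic diet, 6435, 6510, 5125, 5726 and 4399 CPM with high-fat feeding, and 6621, 6464, 5515, 5846 and 6674 CPM on chow. mt-Nd2 (chrM:3914-4951) had 10500, 11080, 10090, 10120 and 10300 CPM on the ketogenic diet, 8647, 9447, 7321, 8858 and 8288 CPM with high-fat feeding, and 9561, 9531, 9595, 9117 and 9960 CPM on chow. For mt-Nd2 the ketogenic libraries were above all others, though the test against chow did not pass (0.13 ± 0.07, 95% interval -0.03 to 0.28, adjusted p = 0.211), and for mt-Nd1 they overlapped chow in CPM (0.15 ± 0.10, 95% interval -0.06 to 0.36, adjusted p = 0.265). As TPM, which carries no test, they lay entirely above chow for both genes. The ranges were 11110 to 13850 against 8494 to 10080 for mt-Nd1 and 16850 to 21190 against 12620 to 15020 for mt-Nd2. With scaling to total counts alone both passed as higher (0.23, adjusted p = 0.0314, for mt-Nd1 and 0.20, adjusted p = 0.0399, for mt-Nd2).

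The remaining complex I genes gave mixed values. The log2 difference from chow was -0.20 ± 0.09 for mt-Nd3 (adjusted p = 0.0773) and -0.06 ± 0.09 for mt-Nd5 (adjusted p = 0.683). mt-Nd6 varied most between libraries, at 102, 105, 52.4, 49.7 and 54.6 CPM on the ketogenic diet and 40.0, 38.3, 46.8, 83.9 and 62.7 CPM on chow, and its interval of -0.33 to 1.17 leaves its direction unsettled. The 8 falls passed in all 25 alternatives, which include each library left out in turn, effective lengths in the model and Mup genes left out of the library sizes.

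**Figure D2:**
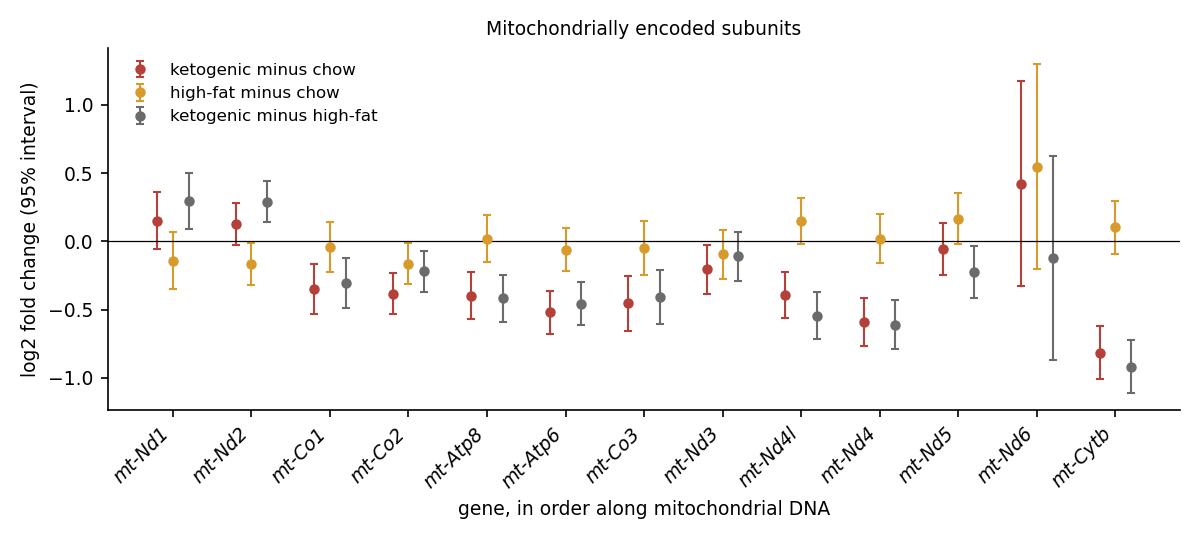
Log2 fold change (y axis) of the 13 mitochondrially encoded genes in order along mitochondrial DNA (x axis) for the 3 diet comparisons. Points are estimates from edgeR with 95% intervals. Ketogenic minus chow is above 0 for mt-Nd1 (0.15) and mt-Nd2 (0.13), which did not pass the test, and is lowest for mt-Cytb (-0.82).

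Because the 13 genes changed by unequal amounts, the make-up of the mitochondrial reads differed between diets. mt-Nd1 took 7.18, 7.83, 7.74, 6.43 and 7.26% of the mitochondrially encoded reads on the ketogenic diet, 5.19, 4.91, 4.69, 4.77 and 3.93% with high-fat feeding, and 5.28, 5.24, 4.54, 4.81 and 5.57% on chow. mt-Cytb took 7.52, 7.22, 8.62, 9.34 and 8.41% on the ketogenic diet, 12.0, 12.2, 12.9, 12.2 and 12.9% with high-fat feeding, and 10.4, 11.3, 12.1, 11.4 and 11.3% on chow. For both genes the ketogenic libraries lay outside the range of the other 10. mt-Nd2 took 11.0 ± 0.943% on the ketogenic diet, 7.12 ± 0.293% with high-fat feeding and 7.82 ± 0.314% on chow (SD, n = 5), and mt-Nd4 took 9.41 ± 0.590, 11.5 ± 0.780 and 11.0 ± 0.532%. By contrast mt-Co1, the most abundant by reads, kept a like share, at 26.5 ± 1.37, 26.1 ± 0.892 and 26.2 ± 1.51%.

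As a ratio inside each library, which no scaling between libraries can alter, reads of mt-Nd1 per read of mt-Cytb were 0.956, 1.09, 0.898, 0.689 and 0.862 on the ketogenic diet. They were 0.434, 0.402, 0.364, 0.390 and 0.304 with high-fat feeding and 0.509, 0.465, 0.375, 0.422 and 0.491 on chow. The lowest ketogenic library was above the highest of the others. Reads of mt-Nd2 per read of mt-Nd4 were likewise 0.969 to 1.36 on the ketogenic diet, 0.594 to 0.657 with high-fat feeding and 0.678 to 0.760 on chow. These pairs were chosen after the values of the 13 genes were seen, so they are a description without a test. Mean effective lengths stood at 728 and 758 bases for mt-Nd1 and at 1018 and 1034 bases for mt-Cytb on the ketogenic diet and chow, in that order.

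**Figure D3:**
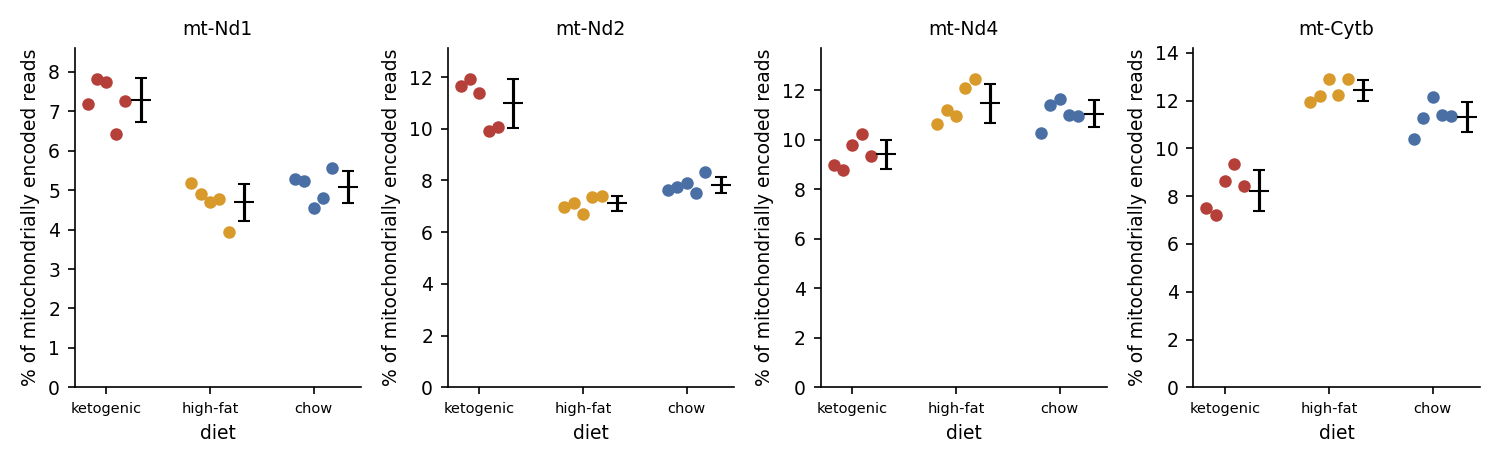
Percent of mitochondrially encoded reads (y axes) taken by mt-Nd1, mt-Nd2, mt-Nd4 and mt-Cytb by diet (x axes), genes chosen after their values were seen. Points are libraries, with the mean and SD (n = 5) beside them. The ketogenic libraries are the highest for mt-Nd1 (6.43 to 7.83%) and mt-Nd2 (9.90 to 11.9%) and the lowest for mt-Nd4 (8.77 to 10.2%) and mt-Cytb (7.22 to 9.34%).

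Among nuclear genes on the ketogenic diet against chow, the 7 that rose included Ndufs1 in complex I, Sdha in complex II, Uqcrc2 in complex III, and Atp5a1, Atp5b and Atp5s in complex V. The 5 that fell were Ndufa6, Ndufa8, Ndufa13 and Ndufs7 in complex I and Cox7a1 in complex IV. In CPM, all ketogenic libraries lay above chow in 7 of the 78 genes, against 12.2% of all genes, and below in 3, against 10.1%. By complex, 31 of 37 nuclear genes of complex I did not pass, nor did 3 of 4 in complex II, 7 of 8 in complex III, 11 of 12 in complex IV and 14 of 17 in complex V. With scaling to total counts alone, 19 nuclear genes were called higher and 3 lower, beside 2754 higher and 1265 lower of all 13967 genes, and all members together went from 7 higher and 13 lower to 21 higher and 11 lower. The nuclear median then stood at 0.05 and that of all genes at 0.06.

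Ndufs1, the largest subunit of the electron-input arm of complex I (chr1:63143596-63176833), had 170, 171, 157, 158 and 170 CPM on the ketogenic diet, 140, 140, 129, 135 and 124 CPM with high-fat feeding, and 128, 123, 128, 135 and 115 CPM on chow. The ketogenic libraries did not overlap either of the other groups. It rose by 0.39 ± 0.06 on the log2 scale (adjusted p = 3.82e-05).

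Uqcrc2, a structural core protein of complex III (chr7:120635176-120659524), had 251, 250, 238, 252 and 270 CPM on the ketogenic diet, 223, 206, 188, 190 and 171 CPM with high-fat feeding, and 223, 183, 199, 195 and 195 CPM on chow. It rose by 0.34 ± 0.07 against chow (adjusted p = 0.00131), with no overlap. For its partner Uqcrc1 the difference was 0.17 ± 0.07 (adjusted p = 0.0611), and for the Rieske iron-sulphur protein Uqcrfs1 it was 0.08 ± 0.06 (adjusted p = 0.367); both were named after their values were seen.

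Atp5b (chr10:128083273-128090391) had 1165, 1121, 1102, 1086 and 1202 CPM on the ketogenic diet, 1026, 942, 942, 841 and 830 CPM with high-fat feeding, and 993, 867, 861, 901 and 801 CPM on chow. The ketogenic libraries were all higher, and the rise was 0.36 ± 0.07 (adjusted p = 0.00105). Atp5a1, the alpha subunit that alternates with beta in the catalytic head, had 996, 976, 936, 981 and 1033 CPM against 928, 825, 856, 869 and 750 CPM on chow (0.22 ± 0.07, adjusted p = 0.0232). Both rises lost their call when kallisto's effective lengths were added to the model, at 0.10 for Atp5b (adjusted p = 0.439) and 0.10 for Atp5a1 (adjusted p = 0.332). The mean effective length of Atp5b was 1354 bases on the ketogenic diet and 1186 on chow. The first of these exceeds the annotated 1330 bases. The means of Atp5a1 and Sdha exceed their annotated 2263 and 2030 bases on every diet. They were 2384 and 2084 bases on the ketogenic diet, 2398 and 2151 with high-fat feeding, and 2308 and 2119 on chow. How the deposited lengths were made is not known. Without the ketogenic library numbered 8 the adjusted p of Atp5a1 was 0.0548, without chow library 16 it was 0.0522, and without chow library 19 it was 0.0579.

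Atp5s, a coupling factor of ATP synthase with low expression, had 5.52, 4.75, 5.62, 4.75 and 5.0 CPM on the ketogenic diet, 4.09, 3.03, 3.02, 3.65 and 3.30 CPM with high-fat feeding, and 4.04, 3.88, 4.04, 4.09 and 3.41 CPM on chow. The ketogenic libraries were again above all others, and the rise against chow was 0.40 ± 0.10 (adjusted p = 0.0062).

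In complex II, which oxidises succinate, Sdha (chr13:74322254-74350280) had 573, 582, 545, 584 and 607 CPM on the ketogenic diet, 568, 568, 567, 544 and 501 CPM with high-fat feeding, and 527, 501, 505, 539 and 448 CPM on chow. The ketogenic libraries were above chow but overlapped the high-fat ones, and the rise against chow was 0.20 ± 0.06 (adjusted p = 0.0241). This call was lost without ketogenic library 6 (adjusted p = 0.0519) or 8 (0.0584) or chow library 19 (0.0586), and with effective lengths in the model (0.15, adjusted p = 0.192). The other 3 subunits did not pass: the iron-sulphur subunit Sdhb differed from chow by 0.12 ± 0.10 (95% interval -0.09 to 0.32), and the membrane anchors Sdhc and Sdhd by 0.15 ± 0.06 (0.02 to 0.27) and -0.01 ± 0.08 (-0.17 to 0.14).

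The falls were in smaller accessory subunits for the most part. Ndufa6 (chr15:82350140-82354322) had 77.4, 76.2, 71.9, 78.6 and 86.3 CPM on the ketogenic diet, 89.5, 87.1, 86.8, 80.2 and 77.5 CPM with high-fat feeding, and 103, 105, 104, 95.3 and 101 CPM on chow. Ndufa8 (chr2:36036326-36049406) had 47.6, 41.9, 43.8, 43.9 and 45.3 CPM on the ketogenic diet, 47.5, 45.1, 43.8, 38.1 and 41.9 CPM with high-fat feeding, and 63.2, 51.4, 53.9, 52.7 and 55.3 CPM on chow. In both genes the chow libraries were above all 10 others in CPM. As TPM the ketogenic and chow ranges overlapped. They were 285.6 to 323.8 against 297.9 to 354.3 for Ndufa6 and 75.17 to 91.31 against 68.99 to 87.31 for Ndufa8. Ndufa6 fell by 0.38 ± 0.06 (adjusted p = 7.21e-05) and Ndufa8 by 0.31 ± 0.07 (adjusted p = 0.00148) on the ketogenic diet, and both held in all 25 alternatives.

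Ndufa13, also known as a cell-death regulator, had 62.2, 57.1, 58.9, 64.7 and 70.2 CPM on the ketogenic diet against 81.8, 74.1, 73.5, 71.2 and 81.5 CPM on chow, without overlap in CPM (-0.29 ± 0.07, adjusted p = 0.00639). As TPM its ranges overlapped, at 68.23 to 76.45 on the ketogenic diet against 65.57 to 74.92 on chow. Ndufs7, a core iron-sulphur subunit, had 30.3, 25.4, 27.9, 27.3 and 28.3 CPM against 38.0, 33.9, 31.3, 28.9 and 31.5 CPM, and these overlapped (-0.23 ± 0.08, adjusted p = 0.0352). Its call ended without ketogenic library 3, 4, 6 or 8 or chow library 15 or 16, with adjusted p up to 0.113. Under protein-coding transcripts alone it stood at -0.31 (adjusted p = 0.21), and under total-count scaling at -0.15 (adjusted p = 0.117).

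**Figure D4:**
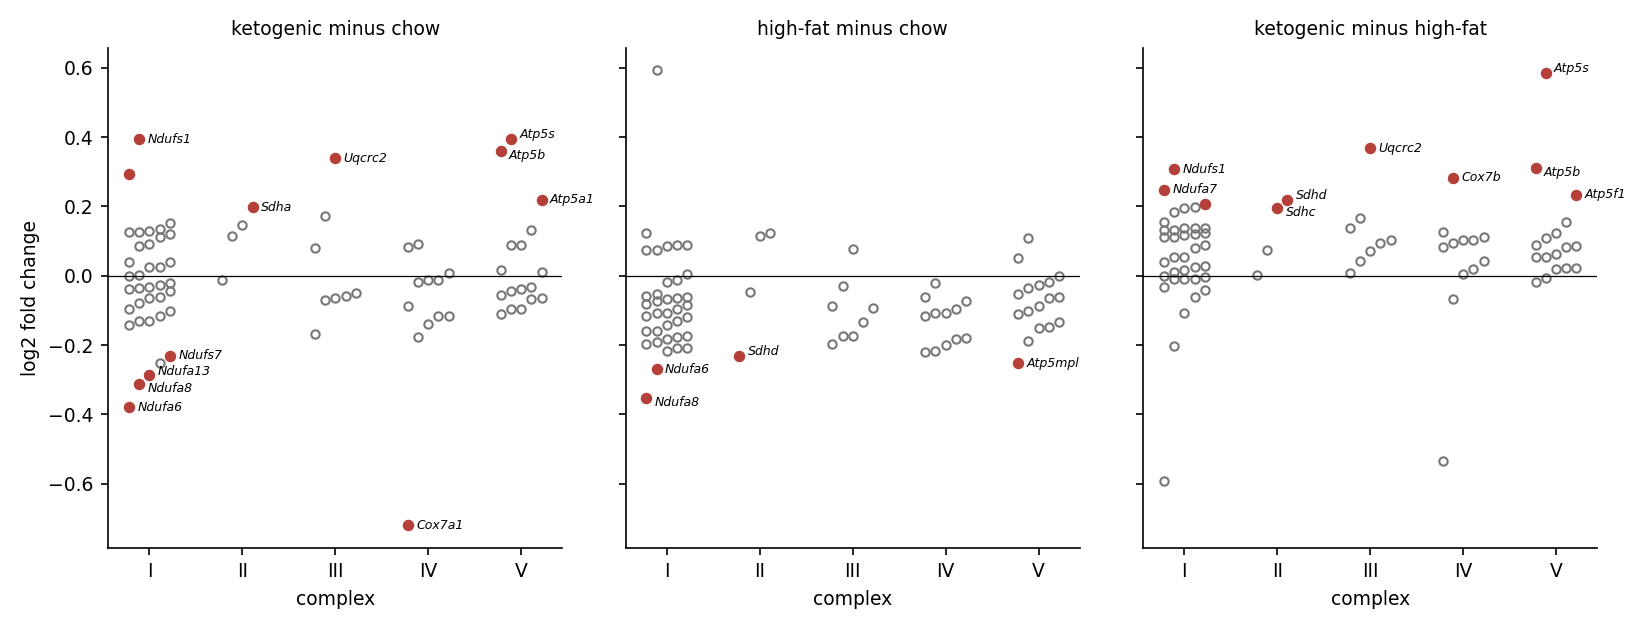
Log2 fold change (y axis) of the 78 nuclear genes tested, by complex (x axis), in the 3 diet comparisons. Each point is a gene, and filled points, named where the text describes them, are those with an adjusted p under 0.05. Cox7a1 (-0.72) is lowest in ketogenic minus chow and Atp5s (0.58) is highest in ketogenic minus high-fat.

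Core subunits, those that carry out catalysis or belong to the conserved enzyme, gave 5 rises and 1 fall among 24 tested, and accessory ones 2 rises and 4 falls among 54, with median log2 changes of 0.06 and -0.04 against chow. Roles were assigned after the files were seen, and they run together with transcript length, since the median annotated length was 941 bases for core and 576 bases for accessory genes. All 7 rises were in the 17 nuclear genes with a mean annotated transcript of 1000 bases or more, of which 1 fell, whereas none rose and 4 fell among the 61 shorter ones. Over all genes tested, 2169 rose and 1719 fell of 12642 at or above 1000 bases, and 89 rose and 319 fell of 1325 below it, with medians of 0.00 and -0.12. The 1000-base division was chosen after the values were seen, and role and length cannot be told apart in these genes.

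**Figure D5:**
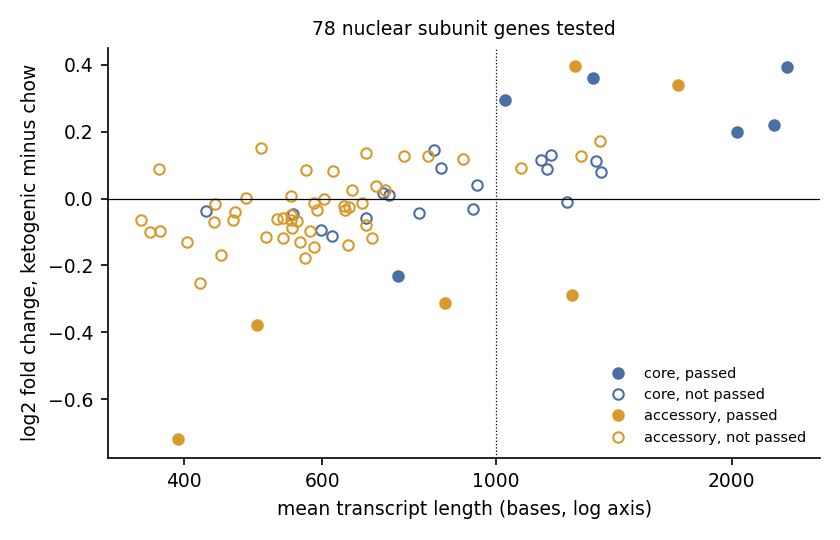
Log2 fold change of ketogenic minus chow (y axis) against mean annotated transcript length in bases (x axis, log scale) for the 78 nuclear genes tested. Blue points are core and yellow points accessory subunits, filled where the adjusted p was under 0.05, and the dotted line is at 1000 bases. The 7 genes that rose all lie to the right of the line.

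On the high-fat diet against chow, 4 nuclear genes fell and none rose, and no mitochondrially encoded gene was called. Over all genes tested 15.6% were called in this comparison, 8.3% higher and 7.32% lower. At an unadjusted p under 0.05 were 2 of the 13 mitochondrial genes, beside 4229 of all 13967 genes. DESeq2 called the same number, mt-Nd2 (-0.18, adjusted p = 0.0293) and mt-Co2 (-0.17, adjusted p = 0.025), beside 1226 higher and 1286 lower of all genes. The median over the 13 was -0.04, and their intervals in edgeR reached from -0.35 for mt-Nd1 to 1.30 for mt-Nd6. For mt-Cytb the interval was -0.09 to 0.30. The nuclear median was -0.10, with 64 of 78 genes below 0, against 0.01 over all genes and -0.12 over all 1325 genes under 1000 bases.

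The nuclear genes that fell were Ndufa6 (-0.27 ± 0.06, adjusted p = 0.00448), Ndufa8 (-0.35 ± 0.07, adjusted p = 0.00204), Sdhd and Atp5mpl, a small membrane subunit of ATP synthase. The first pair did so without overlap in CPM, as did 4.82% of all genes lower, and in all 25 alternatives. As TPM Ndufa8 overlapped chow, at 52.37 to 74.71 with high-fat feeding against 68.99 to 87.31. Ndufa6 and Ndufa8 fell in both comparisons with chow, which share the chow libraries. Sdhd had 163, 157, 138, 142 and 123 CPM against 192, 163, 166, 163 and 164 CPM on chow (-0.23 ± 0.08, adjusted p = 0.0421). Atp5mpl had 66.9, 58.1, 50.8, 51.2 and 48.5 CPM against 71.2, 66.8, 62.1, 63.6 and 64.6 CPM (-0.25 ± 0.08, adjusted p = 0.0358). Both overlapped with chow, and both calls were lost without high-fat library 11, 12 or 14 or chow library 15, 16 or 19. A fit of only the diets compared removed both too (adjusted p = 0.0668 for Sdhd and 0.0573 for Atp5mpl). So did no filter on low counts for Sdhd (0.0509) and effective lengths in the model for Atp5mpl (0.068). Without chow library 15 the adjusted p was 0.123 for Sdhd and 0.0925 for Atp5mpl, and Sdhd was also lost without ketogenic library 3 (0.0529) or 6 (0.0503) or chow library 17 (0.0595) or 18 (0.0538). High-fat library 9 mattered most for the count: without it 15 nuclear genes were lower than chow, beside 1313 of 14067 genes in all, and without high-fat library 11, 12 or 14 or chow library 15 or 16 the number was 2.

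Set directly against the high-fat diet, the ketogenic diet gave 10 nuclear rises with no fall, and 2 rises and 8 falls among the mitochondrially encoded genes. Of all genes tested 26.1% were called here, 13.1% higher and 13% lower. Median log2 changes were 0.08 over the nuclear and -0.31 over the mitochondrial genes, against -0.02 over all genes. In CPM, the ketogenic libraries were entirely above the high-fat ones in 7 nuclear genes and 1 mitochondrial gene, against 9.3% of all genes. They were entirely below in 6 mitochondrial genes, against 7.7%. These are the same ketogenic libraries as in the comparison with chow.

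Among the mitochondrial genes, mt-Cytb fell by 0.92 ± 0.09 (adjusted p = 1.61e-06), mt-Nd4 by 0.61 ± 0.09, mt-Nd4l by 0.54 ± 0.08, mt-Atp6 by 0.46 ± 0.08, mt-Atp8 by 0.42 ± 0.08, mt-Co3 by 0.41 ± 0.10, mt-Co1 by 0.31 ± 0.09 and mt-Co2 by 0.22 ± 0.07 (adjusted p = 0.0285). mt-Nd2 rose by 0.29 ± 0.07 (adjusted p = 0.00682), without overlap, and mt-Nd1 by 0.29 ± 0.10 (adjusted p = 0.0351), with overlap in CPM. The rise of mt-Nd1 was lost without ketogenic library 3, 4 or 8 or high-fat library 11, 12 or 14, with adjusted p up to 0.0914. It was also lost with protein-coding transcripts alone (0.0675) or only those diets in the fit (0.055). The fall of mt-Co2 was lost without ketogenic library 2, 3 or 4 or high-fat library 9 or 10, with adjusted p up to 0.0819. Total-count scaling (0.0631), no filter on low counts (0.0777) and only those diets in the fit (0.0572) removed it too. The other 8 calls held in all 25 alternatives.

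The nuclear genes that rose against the high-fat diet included Ndufs1, Ndufa7, Sdhc, Sdhd, Uqcrc2, Cox7b, Atp5b, Atp5f1 and Atp5s. Uqcrc2 rose by 0.37 ± 0.07 (adjusted p = 0.00107), Ndufs1 by 0.31 ± 0.06 (adjusted p = 0.000697) and Atp5s by 0.58 ± 0.10 (adjusted p = 0.00046). Atp5b rose by 0.31 ± 0.07 (adjusted p = 0.00495) but stood at 0.14 (adjusted p = 0.249) with effective lengths in the model, under which Atp5s stood at 0.35 (adjusted p = 0.0711). The calls of Sdhc (0.0588), Cox7b (0.091) and Ndufa7 (0.0834), whose values follow, were lost in that model as well. Atp5f1, part of the stalk that holds the catalytic head in place, had 295, 291, 297, 311 and 319 CPM against 291, 269, 249, 252 and 228 CPM, so that its lowest ketogenic library stood just above the highest high-fat one (0.23 ± 0.07, adjusted p = 0.0131).

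In complex II the order of the diets differed by subunit. Sdhd had 176, 169, 154, 165 and 177 CPM on the ketogenic diet, and its rise of 0.22 ± 0.08 against the high-fat diet (adjusted p = 0.0366) went with a level that did not differ detectably from chow. Sdhc had 136, 122, 121, 130 and 134 CPM on the ketogenic diet, 116, 120, 115, 109 and 103 CPM with high-fat feeding, and 129, 115, 113, 109 and 116 CPM on chow (0.19 ± 0.06 against high-fat, adjusted p = 0.0237). Cox7b, a small subunit of complex IV, had 150, 147, 138, 152 and 164 CPM against 147, 142, 111, 107 and 111 CPM, with 3 high-fat libraries far below the other 2 (0.28 ± 0.09, adjusted p = 0.0287). Ndufa7, an accessory subunit of complex I, rose by 0.25 ± 0.08 (adjusted p = 0.0283).

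Several of these calls were lost when a single library was left out. Without ketogenic library 2 the adjusted p was 0.0614 for Sdhc and 0.0808 for Sdhd, and without ketogenic library 8 it was 0.0711 for Cox7b, 0.0572 for Sdhc, 0.0815 for Sdhd and 0.0731 for Ndufa7. Without high-fat library 12 it was 0.0532 for Sdhc, 0.0784 for Cox7b, 0.0685 for Sdhd and 0.0619 for Ndufa7. High-fat library 14 did the same for Sdhc (0.0614), Cox7b (0.0696), Sdhd (0.0946) and Ndufa7 (0.0679), and high-fat library 11 for Cox7b (0.0785), Sdhd (0.0841) and Ndufa7 (0.0573). Sdhd was also lost without ketogenic library 3 (0.0665) or 6 (0.0516), and Ndufa7 without ketogenic library 4 (0.0536) or 6 (0.0527). Without high-fat library 12 the nuclear count was 5 rises and 2 falls, and without high-fat library 14 it was 6 rises and 1 fall. In the other direction, 22 nuclear genes rose without high-fat library 9, beside 1982 of 14067 genes in all. With scaling to total counts alone 30 rose, beside 2305 higher and 960 lower of all 13967 genes. With protein-coding transcripts alone 5 nuclear genes rose and 2 fell, and calls were lost for Atp5f1 (adjusted p = 0.208), Sdhd (0.0813), Sdhc (0.0597) and Ndufa7 (0.056) among others.

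In the Cox4i, Cox6a, Cox6b and Cox8 families the liver form accounted for nearly all of the reads. Cox4i1, the ubiquitous form of the largest nuclear subunit of complex IV, had 219 ± 12.2 CPM on the ketogenic diet, 205 ± 23.9 with high-fat feeding and 221 ± 22.1 on chow (SD, n = 5), while Cox4i2, the form known from lung, had at most 4 reads in any library. Cox6a1 had 133 ± 7.21, 133 ± 7.71 and 150 ± 15.5 CPM, and the heart and muscle form Cox6a2 at most 4 reads. For Cox6a1 the difference from chow was -0.18 ± 0.07 on either diet (adjusted p = 0.0598 for ketogenic and 0.0829 for high-fat). The ketogenic difference passed in 7 of 25 alternatives, among them DESeq2 (adjusted p = 0.0474) and effective lengths in the model (0.0312). Cox6b1 had 149 ± 9.27, 141 ± 19.3 and 151 ± 11.8 CPM, and the testis form Cox6b2 had 4 to 15 reads. Cox8a had 88.5 ± 7.05, 87.3 ± 6.37 and 94.1 ± 8.41 CPM, against at most 6 reads of Cox8b and 0 of Cox8c.

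The muscle form Cox7a1 was the only member of the isoform families described here that edgeR called against chow on the ketogenic diet. It had 0.354, 0.204, 0.464, 0.496 and 0.366 CPM on the ketogenic diet, 0.568, 0.540, 0.531, 0.480 and 0.635 CPM with high-fat feeding, and 0.914, 0.623, 0.491, 0.618 and 0.477 CPM on chow, from 8 to 31 reads per library. The ketogenic and chow libraries overlapped, and the fall was 0.72 ± 0.25 (adjusted p = 0.0325). It was lost without ketogenic library 2, 3 or 8 or chow library 15, 16 or 18, with adjusted p up to 0.112, and also with total-count scaling (0.0585), no filter on low counts (0.0573) or only those diets in the fit (0.0548). Markers of skeletal muscle (Ckm, Acta1, Myh4, Tnnc2 and Mylpf) summed to 0.331 to 3.17 CPM on the ketogenic diet, 0.256 to 0.852 with high-fat feeding and 0.501 to 5.66 on chow, with 2 of the 5 under 1 CPM in every library; their part in the Cox7a1 result was not tested. Its liver relatives Cox7a2 and Cox7a2l, the latter known for joining complexes III and IV, differed from chow by 0.01 ± 0.08 and 0.09 ± 0.07 on the ketogenic diet.

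The 3 genes for the c-ring of ATP synthase encode the same mature protein. Atp5g3 had the highest level, at 279 ± 17.7 CPM on the ketogenic diet, 263 ± 29.2 with high-fat feeding and 275 ± 18.6 on chow. Atp5g1 had 92.5 ± 4.31, 91.0 ± 11.2 and 99.9 ± 12.8 CPM, and Atp5g2 had 68.7 ± 3.05, 65.7 ± 5.10 and 68.1 ± 4.499 CPM. None of the 3 passed in any comparison, and their intervals for ketogenic minus chow were -0.29 to 0.07 for Atp5g1, -0.12 to 0.14 for Atp5g2 and -0.14 to 0.18 for Atp5g3. Ndufa4 had 204 ± 16.3, 185 ± 28.7 and 209 ± 17.0 CPM, and its hypoxia-induced relative Ndufa4l2 had 0.631 ± 0.121, 0.944 ± 0.306 and 0.631 ± 0.201 CPM, with a difference of 0.59 ± 0.25 between high-fat and chow that did not pass (adjusted p = 0.121).

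The 7 genes below the filter were Cox4i2, Cox6a2, Cox6b2, Cox7b2, Cox8b, Cox8c and a second annotated copy of Atp5o, and none was tested. Cox7b2 had at most 1 read in any library. The second copy of Atp5o had 0 to 16 reads, and reads shared with the main copy could be divided between them.

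Of the 78 nuclear genes tested, 63 had a promoter in the RefSeq table for build GRCm38.p6, read here as the 250 bases before the RefSeq start site. In 41 of the 63 this window overlapped the gene's own GENCODE annotation, as for Ndufa12, so the counts are not of upstream sequence alone. The NRF1 motif, GCGCA, any base and GCGC without a gap, searched on both strands as were the others, was present in 12 of the 63 (19%) and in 3.74% of all 32851 promoters of that length. The ETS/GABP motif CCGGAAG was in 11 (17.5%, against 6.91%), the ERR motif TCAAGGTCA in 1 (1.59%, against 0.387%) and the YY1 motif, AAGATGG followed directly by CGG, in 0 (against 0.301%). NRF1, GABP, ERR and YY1 are transcription factors known to act on nuclear respiratory genes. Of the 7 genes that rose against chow on the ketogenic diet only Atp5b and Sdha had an entry, and the NRF1 motif was in 1 of these 2, in 1 of the 5 that fell, and in 10 of the 56 that did not pass. Each member was counted by 1 promoter, the entry nearest its GENCODE start. The 32851 promoters are all entries of the RefSeq table, with no such choice and no filter on expression. The percents therefore come from sets that were built differently. A match is a description of the letters and not a bound site.

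Genes that assemble or serve the chain were read from lists, and their counts are given for ketogenic against chow, beside the 16.2% higher and 14.6% lower of all genes. Complex I assembly factors gave 2 rises and 5 falls among 17 tested, led by Nubpl, which inserts iron-sulphur clusters (0.65 ± 0.07, adjusted p = 2.43e-06). The falls included Dmac2 (-0.38 ± 0.09, adjusted p = 0.00208) and Timmdc1 (-0.24 ± 0.06, adjusted p = 0.00841). Complex IV assembly gave 3 rises and 3 falls among 21, with rises of Coa6 (0.65 ± 0.11), the mt-Co1 translation activator Taco1 (0.54 ± 0.09) and the haem A synthesis enzyme Cox15 (0.36 ± 0.06), and with a fall of the insertion factor Cox18 (-0.37 ± 0.10). Complex II assembly gave 1 rise and 1 fall among 4, and complex III assembly 1 rise and 1 fall among 6. No gene of the 5 for ATP synthase assembly passed, nor did Cyc1 or Ndufab1, and DESeq2 was not compared for these lists. An unadjusted p under 0.05 was reached by 3 of the 5 and 0 of the 2, beside 5673 of all 13967 genes.

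Electron carriers and ubiquinone synthesis gave 9 rises and 1 fall among 20 (median 0.16). Etfdh, which passes electrons from fatty acid oxidation to ubiquinone, rose from 244 ± 13.2 CPM on chow to 411 ± 37.1 CPM on the ketogenic diet (0.75 ± 0.07, adjusted p = 1.3e-07), and was 285 ± 8.52 CPM on the high-fat diet (0.22 ± 0.07 against chow, adjusted p = 0.0272). Gpd2, the mitochondrial glycerol phosphate dehydrogenase, rose on the ketogenic diet (0.63 ± 0.09) and fell on the high-fat diet (-0.29 ± 0.09, adjusted p = 0.0404). The fall in the list was Coq8a, a ubiquinone synthesis kinase (-0.94 ± 0.11, adjusted p = 5.38e-06).

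Genes for expression of mitochondrial DNA gave 8 rises and 2 falls among 31 (median 0.06). Hsd17b10, a subunit of the enzyme that cuts tRNA ends from the precursor RNA and also an enzyme of isoleucine breakdown, rose by 0.65 ± 0.09 on the ketogenic diet and 0.60 ± 0.09 on the high-fat diet (adjusted p = 3.25e-05 and 0.000365). Mterf2 rose by 0.87 ± 0.18 and Fastkd5, which acts on mitochondrial RNA ends that lack tRNAs, by 0.34 ± 0.08, while the DNA-binding protein Ssbp1 fell by 0.32 ± 0.06 against chow. Against the high-fat diet, Tfam, the main mitochondrial transcription factor, rose by 0.37 ± 0.06 (adjusted p = 0.000336) and Lrpprc, which stabilises mitochondrial mRNAs, by 0.25 ± 0.06 (adjusted p = 0.00504).

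Of the 8 regulators of nuclear subunit genes none passed for ketogenic against chow. There 2 had an unadjusted p under 0.05, beside 5673 of all 13967 genes. Against the high-fat diet Ppargc1a, the coactivator of mitochondrial biogenesis, rose by 0.81 ± 0.22 (adjusted p = 0.0134) and the nuclear receptor Esrra fell by 0.29 ± 0.08 (adjusted p = 0.0142). Other mitochondrial proteins, such as import and carrier proteins, gave 9 rises and 1 fall among 25, with Immt, Tomm70a, Slc25a5 and Mfn2 up by 0.33 ± 0.06, 0.25 ± 0.05, 0.30 ± 0.06 and 0.30 ± 0.07.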

How the data were processed

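RNA of 15 livers was sequenced. Trimmomatic 0.36, kallisto 0.44, edgeR 3.28 and build GRCm38.p6 are listed, without settings, per the submitters' processing notes. The deposited tables give an estimated count, a TPM value (count scaled by effective length and depth) and an effective length per transcript, per the file headers. Estimated counts were summed per gene with GENCODE M21 (105734 of 106332 transcripts matched; the other 598 were left out) and rounded. edgeR 4.0.16 kept 13967 genes by filterByExpr (at least 10 counts, and 15 in total) and modelled the 3 diets together with TMM scaling, robust quasi-likelihood tests (residual degrees of freedom 12) and Benjamini-Hochberg adjustment over all genes, with a threshold of 0.05. CPM uses TMM library sizes. SE is the log2 change divided by the root of F. DESeq2 1.42.0 in R 4.3.3 served as an alternative, and pandas 2.3.3 (Python 3.11.15) and matplotlib 3.10.9 made tables and figures. The code was tested on simulated counts.

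Groups follow the diet in the labels. Each library was taken as 1 mouse, which the labels do not state, so p values measure the spread between libraries. Counts of 30 replicate pairs differed with chi-square statistics 18.5 to 113 times their degrees of freedom, so none was a repeat of another. Members and lists were chosen with earlier results of these data known. Nuclear genes were named by rule: in each comparison the 2 smallest adjusted p values among called genes per complex and direction, the 4 largest called rises and falls at 5 CPM or more, the Sdh genes, the isoform families and the members below the filter. From each pathway list up to 4 called genes per comparison were eligible by adjusted p. Atp5a1, Atp5f1 and Ndufa7 were added because they were called, and Uqcrc1 and Uqcrfs1 after their values were seen. Shares and TPM are described without a test. Of the members called, 1 is counted but not reported by name here.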

Additional observations from a re-analysis of the deposited data

Results flagged for a closer look

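Among 171 groups of 5 libraries, 5 held a library set apart from the other 4 by most of the group's range, and chance alone gives about 1 in 20. Chow library 15 stood apart in Sdhd, at 192.4 CPM against 162.5 to 165.9, and in Atp5g3, at 307.4 CPM against 262.3 to 273. Ketogenic library 3 had 0.8419 CPM of Ndufa4l2 against 0.5361 to 0.5999. In high-fat library 9 nuclear subunits took 0.9472% of the reads against 0.8765 to 0.8941%. In ketogenic library 2 the mitochondrial complex I genes took 3.368% against 3.47 to 3.486%.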

How the results depend on the processing

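The 25 alternatives comprised 10 settings and 15 in which each library was left out. Under them the gene values stayed on the same side of the threshold in 3087 cases, lost the call in 96 and gained it in 36. The sign changed in 75 of the 3219 cases, over 23 of 129 values, all of them uncalled with either setting, such as mt-Nd5 in ketogenic against chow (-0.06, up to 0.01). DESeq2 called 7 members in high-fat against chow, 2 of them mitochondrially encoded (4 and 0 in edgeR), and a fit of only the diets compared called 2, both nuclear. Over all genes DESeq2 called 1226 higher and 1286 lower there, against 1159 and 1023 in edgeR. The fit of only the diets compared called 861 higher and 842 lower of 13640 genes. Total-count scaling, under which the median of all genes was 0.06 for ketogenic against chow, called 32 members there (22 nuclear), and 39 in ketogenic against high-fat (30 nuclear; 32 higher and 7 lower in all, against 12 and 8). With each library left out the calls ranged from 17 to 21 for ketogenic against chow (nuclear 9 to 13, mitochondrial 8 to 8), 2 to 15 for high-fat against chow (nuclear 2 to 15) and 16 to 31 for ketogenic against high-fat (nuclear 7 to 22, mitochondrial 8 to 10); the highest values of the last pair of comparisons were without high-fat library 9. The cause was not tested. Over all genes, the fits with a library left out called 1950 to 2329 higher and 1652 to 2112 lower for ketogenic against chow. For high-fat against chow they called 802 to 1441 higher and 681 to 1313 lower. For ketogenic against high-fat they called 1479 to 1982 higher and 1381 to 1961 lower.

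Without Mup genes the mitochondrial share was 10.29, 13.28 and 13.36% and the nuclear share 1.078, 1.014 and 1.029% (ketogenic, high-fat, chow), the latter with overlapping ranges. With protein-coding transcripts alone the mitochondrial share was 10.4% (ketogenic) and 12.71% (chow) and the nuclear share 0.9432, 0.8173 and 0.8331%. Without mitochondrial genes the nuclear share was 1.14, 1.02 and 1.05%. These follow from the smaller totals or fewer transcripts.

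No paired analysis was possible because no replicate number is shared between diets. Adding nuclear copies of mitochondrial genes was not run, as no such pseudogene was identified in the tables used here. Variation between libraries, more than depth, limits precision, except for Cox7a1, Atp5s and Ndufa4l2 with few reads.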
